A study of Mus musculus with 45 samples.

Results

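Mouse neural progenitor cells induced with OKMS were compared with those induced with OKS late in reprogramming, on days 10 to 20 of induction, in 8 of the 45 long-read RNA libraries of the series. OKMS stands for Oct4, Klf4, Myc and Sox2, and OKS for the same set without Myc. The 8 libraries were chosen by their labels as pairs of 1 OKMS and 1 OKS library of the same day and the same Nanopore chemistry. Of the 4 pairs, 3 were sequenced on R9 pores at days 10, 14 and 20, and 1 on R10 pores at day 18. All 8 came from Oct4-GFP progenitors of the line O4G, derived from embryonic stem cells, with the genotype OKMS-Luciferase-AS or OKS-Luciferase-AS, and all were held in fetal bovine serum with LIF and doxycycline, the inducer of the factors. The labels describe stable lines and give no number of clones, so a difference between the factor sets cannot be told apart from a difference between the lines. They do not state whether the days came from separate cultures, and the p-values therefore measure only the spread between these libraries. The chemistries also differed in input: R9 took unamplified cDNA from RNA selected for poly(A) tails, and R10 took PCR-amplified cDNA from total RNA. Early pairs (days 2 to 6, 5 pairs), pairs moved to 2i-LIF (2 pairs) and uninduced pairs (2 pairs) came from the same lines. They entered no gene-level estimate of the late difference. They share the error of a fit over all pairs used for the comparisons between stages and days. The uninduced libraries also help to set the progenitor end of an axis from progenitors to stem cells. Wild-type progenitors without the factors, in progenitor medium or after 2 days in serum, LIF and doxycycline, gave levels for reference. So did embryonic stem cells of the lines O4G, R1 and R1-Clone3, held in 2i-LIF in the R10 libraries. Stem cells and the wild-type progenitors in progenitor medium also set the ends of that axis.

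Reprogramming replaces the programme of a differentiated cell with that of a pluripotent one. Oct4 (gene Pou5f1), Sox2 and Klf4 bind and open genes of the pluripotent state, while Myc is a general driver of ribosome production, metabolism and division that raises the speed and yield of reprogramming but is not required for it. Cells that start the process lose mesenchymal and cytoskeletal genes and gain epithelial ones before the pluripotency network is established. Serum and TGF-beta act against this step, as they drive actin, matrix and other genes of the mesenchymal state.

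Values below are CPM, read counts scaled to the library total, and follow 1 order: day 10, day 14 and day 20 in R9, then day 18 in R10. A difference is the OKMS minus OKS mean of log2(CPM + 1) over the 4 pairs with its standard error, from limma with the pair as a block, and it understates the change of low genes. A gene was called when its Benjamini-Hochberg adjusted p was under 0.05 and the difference at least 1 in size. Of 14896 genes tested, 32 were called higher in OKMS (0.215% of those tested) and 212 lower (1.42%). The higher genes were 22 protein-coding genes, 6 lncRNAs, 3 unannotated genes and 1 of another class. The lower ones were 208 protein-coding genes, 2 lncRNAs, 1 unannotated gene and 1 of another class. All 32 and all 212 had 1 direction in the 4 pairs, which the choice of genes on these pairs nearly fixes. Of all tested genes 8% were higher and 15.7% lower in all 4. The median difference of all tested genes was -0.07. With libraries centred on their median gene the calls became 67 higher and 112 lower, a share of 37.4% higher in place of 13.1%, and the median moved to 0.16. Without the pair block no gene was called (1555 genes at an unadjusted p under 0.05), and leaving out the pair of day 10, 14, 20 or 18 gave 50, 4, 609 or 106 calls, so the count rests on which pairs are kept, the day 14 pair most of all. edgeR's quasi-likelihood test on the recovered reads called 432 genes, 239 of the 244 among them.

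The 8 libraries held 447990 to 1390424 reads on genes, the fewest in OKS of day 10. Mitochondrial genes took 0.337 to 0.990% of reads in the 6 R9 libraries, highest in OKS of day 10, and 2.03 and 2.04% in the day 18 pair. Their part in the results was not tested. In these bulk samples fewer cells of a type and less RNA per cell cannot be told apart.

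None of the 4 introduced factors was called between the late libraries. Myc read 15.5, 77.0, 93.6 and 5.94 CPM in OKMS and 58.0, 53.8, 49.6 and 52.5 CPM in OKS, a difference of -0.84 ± 0.57 (adjusted p = 0.45). OKMS was thus above OKS at days 14 and 20 and below it at days 10 and 18. On days 2 to 6 the gene-level Myc count of OKMS was above that of OKS in all 5 pairs, for example at 87.6 against 57.2 CPM at day 4 and at 103 against 25 CPM at day 2 in R10. Sox2 was lower in OKMS in all 4 pairs, by little at day 14, with a difference of -0.45 ± 0.27 (adjusted p = 0.384). Klf4 differed by -0.13 ± 0.28 (adjusted p = 0.837), a direction that flipped to 0.10 with median centring. OKMS and OKS therefore name libraries by their labels here, not by a Myc level. Pou5f1 was at 30.9, 873, 1457 and 889 CPM in OKMS and 4.46, 213, 1393 and 828 CPM in OKS, with a difference of 1.19 ± 0.42 (adjusted p = 0.176). It was higher in OKMS in all 4 pairs, and its gap was wide at days 10 and 14 and narrow at days 18 and 20.

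The long reads place these counts on transcripts. Of the Pou5f1 transcript TPM (a level per length, scaled to the library total), 88.2% in OKMS and 86.9% in OKS fell on 1 full-splice match of the annotated 5-exon transcript, 1498 bases long. That transcript was at 25.7, 824, 1407 and 567 TPM in OKMS and at 0, 119, 1377 and 559 TPM in OKS. The full-length annotated Myc transcript, 3 exons and 2355 bases, was at 3.77, 10.1, 15.9 and 1.12 TPM in OKMS and 20.9, 14.0, 11.5 and 11.3 TPM in OKS. Among the late pairs it was higher in OKMS at day 20 only. In the 5 early pairs it was lower in OKMS each time, against the direction of the gene count: 2.28, 2.02, 0, 4.90 and 4.95 TPM in OKMS and 7.27, 12.3, 17.8, 6.85 and 14.1 TPM in OKS at days 2, 4 and 6 in R9 and days 2 and 6 in R10. Whether reads of the introduced copies are counted on these genes was not tested.

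Among the 212 genes lower in OKMS, Fmod had the largest difference. Fmod, which encodes fibromodulin, a collagen-binding proteoglycan, was at 83.0, 32.7, 0 and 19.3 CPM in OKMS and 1349.7, 832, 47.4 and 303 CPM in OKS. Each OKS library held far more than its OKMS partner, and in both systems days 20 and 18 lay below days 10 and 14. The difference was -4.54 ± 0.32 (adjusted p = 3.6e-04). Igfbp3, a secreted binder of insulin-like growth factors, was at 73.1, 74.9, 25.9 and 17.8 CPM in OKMS and 1185, 1352, 251 and 213 CPM in OKS. Every OKMS library lay below every OKS library, with a difference of -3.72 ± 0.26 (adjusted p = 3.6e-04). Ecrg4, a secreted peptide precursor, differed by -3.81 ± 0.48 (adjusted p = 0.00572) and Akr1c14, an aldo-keto reductase, by -3.72 ± 0.31 (adjusted p = 0.00105). The other genes with the largest falls were Cemip, a hyaluronan-degrading protein, at -3.55 ± 0.62 (adjusted p = 0.0258), Cdo1, a cysteine dioxygenase, at -3.53 ± 0.46 (adjusted p = 0.00625), and Rcan2, Tmprss5, Dok5 and Frmd3, whose differences ran from -3.69 to -3.40. Rcan2 was above 0 in OKMS at day 10 alone.

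**Figure D1:**
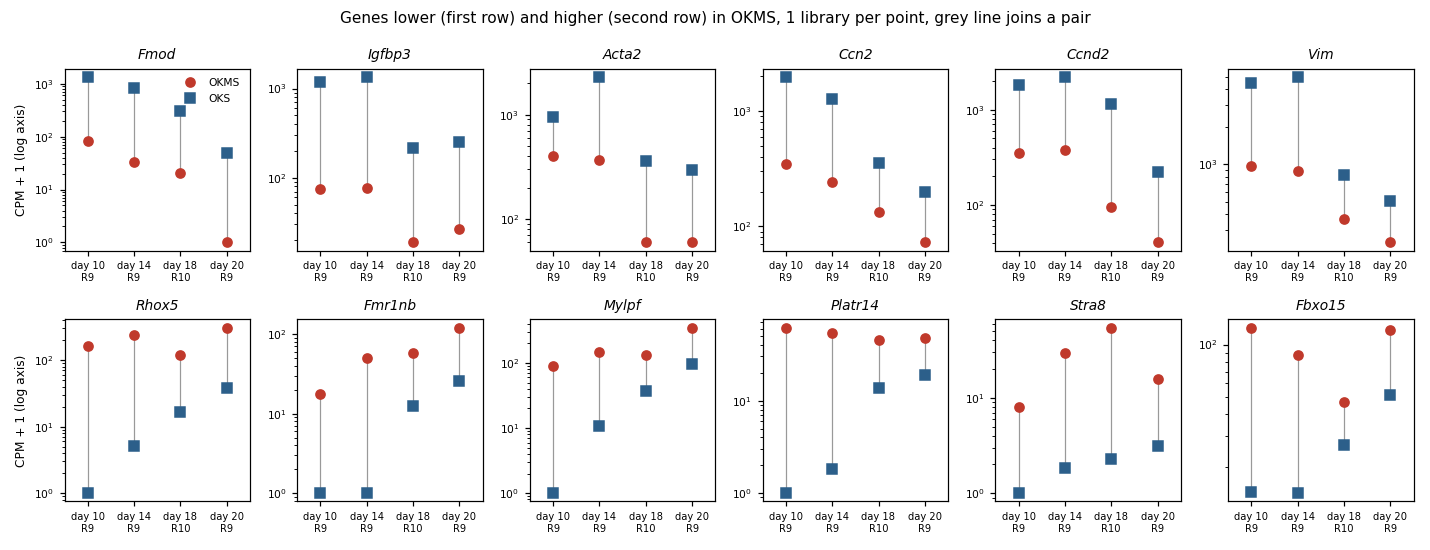
Each panel plots CPM + 1 on a log axis for 1 gene, with OKMS (circles) and OKS (squares) of the same day and chemistry joined by a grey line. In the first row every OKMS point lies below its OKS partner, and in the second row every OKMS point lies above it.

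Genes of the contractile actin cytoskeleton were the list with the highest share of calls: 6 of 13 were lower in OKMS and none was higher. Of all tested genes 1.42% were lower and 0.215% higher, the background for this list and each list below. The lists were chosen with earlier results of these data known, so their order by share only describes them. The list's median was -1.29, against -0.07 for all genes tested. Acta2, smooth muscle actin, was at 404, 366, 59.1 and 59.4 CPM in OKMS and 953, 2299, 292 and 362 CPM in OKS. OKS was above OKMS in each pair, and the 2 later OKS libraries still lay below the 2 earlier OKMS ones. The difference was -2.19 ± 0.29 (adjusted p = 0.00647). Actg2, a second smooth muscle actin, fell by 3.71, Myl9, a myosin light chain, differed by -2.24 ± 0.30 (adjusted p = 0.00737), and Tagln, transgelin, by -1.62 ± 0.31 (adjusted p = 0.0362). Flna, the actin crosslinker filamin A, differed by -1.62 ± 0.23 (adjusted p = 0.00974) and Cald1, caldesmon, by -1.37 ± 0.26 (adjusted p = 0.0362). Tpm1, a tropomyosin, was at 1280.0, 576, 218 and 491 CPM in OKMS and 1466, 1783, 1059.9 and 1028 CPM in OKS and was not called (-1.29 ± 0.35, adjusted p = 0.0958).

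Among TGF-beta and BMP pathway genes, 6 of 18 were lower and none was higher, with a median of -1.35. The ligands called were Tgfb2, with a difference of -2.45 ± 0.44 (adjusted p = 0.0284), and Inhba, the activin A subunit, with -2.88 ± 0.50 (adjusted p = 0.0251). Inhba rested on few reads, 2, 3, 0 and 1 in OKMS and 7, 36, 11 and 19 in OKS. Thbs1, thrombospondin 1, which can activate latent TGF-beta, was at 38.0, 28.5, 13.5 and 23.7 CPM in OKMS and 265, 275, 71.9 and 80.7 CPM in OKS, and each OKMS library lay below each OKS library (-2.51 ± 0.31, adjusted p = 0.00572). The targets called were Ccn2 and Ccn1, matricellular proteins that also respond to the YAP and TEAD proteins, and Id3, a BMP-responsive inhibitor of basic helix-loop-helix factors. Ccn2 was at 345, 239.5, 71.4 and 132 CPM in OKMS and 1979, 1274, 198 and 353 CPM in OKS, lower in OKMS in every pair (-1.95 ± 0.28, adjusted p = 0.0104). Ccn1 differed by -1.65 ± 0.30 (adjusted p = 0.031) and Id3 by -1.56 ± 0.29 (adjusted p = 0.0318). Of the 18 genes 3 had a difference above 0. The related genes Id1, Id2 and Id4 were not called (adjusted p = 0.237, 0.118 and 0.101). At day 20 they were higher in OKMS, at 296 against 167, 159 against 144 and 16.0 against 15.1 CPM. In the other late pairs they were lower in OKMS.

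Promoter sequences are shown for 3 of these genes, whose known regulators bind short elements near the start. Stretches of 60 bases were taken within the 250 bases before the RefSeq start (build GRCm38.p6, the build of the deposited positions), 5′ to 3′ on the gene's strand, with a motif match in capitals: GGAATG or its reverse complement, the core letters bound by TEAD factors, in Acta2 and Ccn1, and a CArG box, the element of serum response factor, in Myl9.
Acta2, chr19:34255487-34255546, minus strand: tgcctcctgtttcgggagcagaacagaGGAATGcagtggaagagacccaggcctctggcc
Ccn1, chr3:145650056-145650115, minus strand: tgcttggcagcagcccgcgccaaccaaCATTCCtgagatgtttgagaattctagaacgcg
Myl9, chr2:156775278-156775337, plus strand: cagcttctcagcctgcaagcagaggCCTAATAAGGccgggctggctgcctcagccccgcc
On either strand of the 250 bases before the start, GGAATG was found for 33 of 154 genes lower in OKMS that had a promoter entry (21.4%), for 2 of 19 higher genes (10.5%) and for 1309 of all 10210 tested genes with an entry (12.8%). The CArG box was found for 4 of the 154 (2.6%) and 1.46% of all. TGANTCA, letters bound by AP-1 (Fos and Jun), was found for 17 of the 154 (11.0%) and 5.21% of all. The motifs were chosen with the gene lists known, a CArG box and GGAATG can share letters, and a match describes the letters only. The deposited transcripts of Acta2 and Myl9 reach upstream of the RefSeq start used, so their stretches lie inside the deposited gene span. Fos itself, an AP-1 subunit and an immediate serum-response gene, was at 56.3, 55.9, 11.1 and 40.1 CPM in OKMS and 509, 179.5, 81.2 and 57.6 CPM in OKS, a difference of -2.02 ± 0.40 (adjusted p = 0.042).

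Of 13 collagen genes 2 were lower, Col11a1 (-3.55 ± 0.68, adjusted p = 0.0362) and Col6a2 (-2.74 ± 0.47, adjusted p = 0.0242), and none was higher. Col11a1 rested on few reads, 2, 0, 1 and 0 in OKMS and 12, 44, 7 and 19 in OKS. Col1a1, a fibrillar collagen, was at 16.9, 21.1, 6.16 and 5.94 CPM in OKMS and 20.1, 105, 53.9 and 35.9 CPM in OKS and was not called (-1.96 ± 0.46, adjusted p = 0.0642). Col4a1 (-1.27 ± 0.31, adjusted p = 0.0754) and Col4a2 (-1.37 ± 0.35, adjusted p = 0.0789) were not called either. Of the 13 genes 2 had a difference above 0. Col18a1, not called, was at 148, 139, 160 and 156 CPM in OKMS and 0, 18.2, 200 and 156 CPM in OKS (2.44 ± 0.98, adjusted p = 0.224). Of 18 mesenchymal genes 3 were lower: Cdh2, N-cadherin, with -2.41 ± 0.47 (adjusted p = 0.0398), Prrx1, a mesenchymal homeobox factor, with -2.06 ± 0.41 (adjusted p = 0.043), and Vim, the intermediate filament vimentin. Vim was at 979, 893, 238 and 368 CPM in OKMS and 4502, 5009, 513 and 819.5 CPM in OKS, lower in OKMS in each pair, with days 18 and 20 below days 10 and 14 in both systems (-1.74 ± 0.32, adjusted p = 0.0318). Sparc, an abundant matrix glycoprotein, was at 948, 761, 385 and 559 CPM in OKMS and 4752, 3084, 612 and 857 CPM in OKS and was not called (-1.41 ± 0.35, adjusted p = 0.0774). The medians were -1.27 for collagens and -0.70 for mesenchymal genes. The 9 fibroblast markers summed to 18.5 to 65.4 CPM in OKMS and 71.7 to 246 CPM in OKS. Prrx1 was the 1 called of the 7 tested, and Pdgfra was at 0 in all 8 libraries.

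Among genes of the progenitor of origin, Ccnd2, cyclin D2, was at 353, 375, 39.4 and 95.0 CPM in OKMS and 1816, 2209, 219.9 and 1149 CPM in OKS, with a difference of -2.74 ± 0.28 (adjusted p = 0.00272). Each OKMS library held less than its partner, and OKS of day 20 lay below OKMS of days 10 and 14. The lncRNA Gm43126 (-2.93 ± 0.31, adjusted p = 0.00349) lies at chr6:127125162-127130315 on the strand opposite Ccnd2 and overlaps it. Whether counting used strand is not given in the sources used here, so its reads and those of Ccnd2 cannot be told apart. Of 15 neural progenitor genes tested 2 were lower in OKMS, Ccnd2 and the growth factor gene Ptn (-2.32 ± 0.37, adjusted p = 0.0169), and the list's median was -1.39. Clu, clusterin, an astrocyte marker in the list used, differed by -1.82 ± 0.28 (adjusted p = 0.0145). Clu was low in wild-type progenitors in progenitor medium, at means of 6.62 CPM in R9 and 2.85 CPM in R10. After 2 days in serum, LIF and doxycycline it was at 1385 CPM in R9 and 1035 CPM in R10. The lncRNA Vax2os, antisense to and overlapping the eye and forebrain homeobox gene Vax2, differed by -2.37 ± 0.49 (adjusted p = 0.0462). The summed level of 10 neural progenitor markers was 29.7 to 167 CPM in OKMS and 72.6 to 578 CPM in OKS, against a mean of 6377 CPM in wild-type progenitors sequenced in R10.

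Single members of other lists were lower in OKMS as well. Mxd4, a partner of Max that opposes Myc, was at 56.3, 43.3, 4.93 and 2.97 CPM in OKMS and 154, 123, 18.7 and 26.9 CPM in OKS. Its level was lower in OKMS in each pair (-1.87 ± 0.35, adjusted p = 0.0334), and it was the 1 gene of 11 in the Myc family list that was called. Cdkn2c, an inhibitor of the cyclin D kinases, was at 18.3, 9.5, 0 and 5.94 CPM in OKMS and 143, 81.9, 4.31 and 24.3 CPM in OKS (-2.54 ± 0.41, adjusted p = 0.0176), the 1 called of 15 p53 and CDK inhibitor genes. Cdkn1a, the p53 target p21, was at 741, 401, 89.9 and 573 CPM in OKMS and 183, 328, 252 and 247 CPM in OKS and was not called. Nnat and Ndn, imprinted genes expressed from the paternal allele, were lower with -2.38 ± 0.31 (adjusted p = 0.00607) and -1.99 ± 0.40 (adjusted p = 0.0434), 2 of 17 imprinted genes. An unannotated gene at chr11:117975987-117980855, plus strand, was read in OKMS at day 10 alone, with 66.9, 29.0, 2.16 and 3.84 CPM in OKS (-2.98 ± 0.63, adjusted p = 0.0477). The nearest annotated gene, Socs3, lay 5003 bases away.

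The 212 lower genes had levels in common in wild-type cells, which the comparison did not use. In wild-type progenitors without the factors, 60.8% of them were at least 2-fold higher after 2 days in serum, LIF and doxycycline than in progenitor medium (R10, 2 against 2 libraries, no test), against 17.6% of all tested genes. Another 3.77% were at least 2-fold lower, against 14.6% of all. Fmod was at 0.446 CPM in the progenitor medium and at 242 CPM after those 2 days, and Acta2 at 0.143 and 77.2 CPM (means of 2 libraries). In embryonic stem cells held in 2i-LIF (7 R10 libraries of the lines O4G, R1 and R1-Clone3) 63.2% of the 212 were at least 2-fold below wild-type progenitors, against 21.4% of all tested genes.

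The 32 genes higher in OKMS included homeobox, meiotic and testis-expressed genes, singled out here after their values were seen. Rhox5, an X-linked homeobox gene of the reproductive tract and early embryo, was at 160.3, 237, 307 and 117 CPM in OKMS and 0, 4.14, 37.4 and 15.4 CPM in OKS. No OKS library reached the lowest OKMS library (4.68 ± 0.65, adjusted p = 0.00857). Its neighbour in the cluster, Rhox6, was at 23.9, 40.1, 41.9 and 4.45 CPM in OKMS and 0, 1.65, 6.47 and 1.28 CPM in OKS (3.09 ± 0.62, adjusted p = 0.042). Stra8, the gene induced by retinoic acid at meiotic entry, was at 7.03, 28.5, 14.8 and 53.4 CPM in OKMS and 0, 0.827, 2.16 and 1.28 CPM in OKS (3.48 ± 0.55, adjusted p = 0.0172). Fkbp6, a chaperone of the piRNA pathway in the male germ line, was at 2.81, 16.9, 59.1 and 66.8 CPM in OKMS and 0, 0, 2.16 and 6.40 CPM in OKS, and OKMS of day 10 lay below OKS of day 18 (3.38 ± 0.56, adjusted p = 0.0193). Rec114, a factor for meiotic DNA breaks, was at 29.5, 35.9, 33.2 and 35.6 CPM in OKMS and 2.23, 3.31, 5.03 and 5.12 CPM in OKS. Every OKMS library lay above every OKS library (2.86 ± 0.41, adjusted p = 0.011). Fmr1nb, an X-linked testis-expressed gene, was at 16.9, 49.6, 119 and 56.4 CPM in OKMS and 0, 0, 24.4 and 11.5 CPM in OKS (3.57 ± 0.59, adjusted p = 0.0208).

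The promoters of Rec114 and Fkbp6 held CACGTG, the E-box bound by Myc and Max and by other helix-loop-helix factors, shown in capitals.
Rec114, chr9:58741560-58741619, minus strand: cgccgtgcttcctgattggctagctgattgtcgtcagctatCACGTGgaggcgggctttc
Fkbp6, chr5:135350049-135350108, minus strand: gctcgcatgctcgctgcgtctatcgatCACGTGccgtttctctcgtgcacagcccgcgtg
This motif was found for 4 of 19 higher genes with an entry (21.1%; Cd37 and Esx1 were the other two), for 13 of 154 lower genes (8.44%) and for 1023 of the 10210 (10.0%). The 4 genes are too few to compare the shares. The Fkbp6 stretch lies inside the deposited gene span, which reaches upstream of the RefSeq start used.

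Other genes higher in OKMS are known from differentiated tissues. Mylpf, a fast-muscle myosin light chain, was at 88.6, 145, 347 and 131 CPM in OKMS and 0, 9.93, 95.6 and 35.9 CPM in OKS (3.48 ± 0.65, adjusted p = 0.0337). Stem cells also carried it, with means of 250.4 CPM in R9 and 529 CPM in R10. Fabp3, a fatty acid binding protein, was at 35.2, 25.3, 16.0 and 758 CPM in OKMS and 0, 0.827, 12.2 and 28.2 CPM in OKS. Its OKMS level at day 18 in R10 was far above the other 3 (3.52 ± 0.69, adjusted p = 0.0393). A 284-base incomplete splice match of 2 exons was at 0, 15.2, 0 and 1388 TPM in OKMS, so nearly all of it came from the day 18 library. The 4-exon full-splice match of 818 bases was at 68.8, 39.5, 32.6 and 350.2 TPM, above the shorter one in the 3 R9 libraries. Sct, the gene of the hormone secretin, differed by 3.06 ± 0.65 (adjusted p = 0.0487).

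Noncoding and unannotated genes made up 9 of the 32. Platr14, a pluripotency-associated lncRNA, was at 60.5, 52.8, 46.8 and 44.5 CPM in OKMS and 0, 0.827, 18 and 12.8 CPM in OKS, close in the 4 OKMS libraries and below all of them in each OKS library (3.47 ± 0.72, adjusted p = 0.0465). Platr3 differed by 2.37 ± 0.50 (adjusted p = 0.0472), Gm32885 by 3.26 ± 0.49 (adjusted p = 0.0135), Gm26564 by 3.17 ± 0.63 (adjusted p = 0.042) and Gm40977 by 3.07 ± 0.60 (adjusted p = 0.0393). Gm40977 overlaps Gm3325 on the same strand, so their reads may be split between them. An unannotated gene at chr2:168310884-168316845, minus strand, was at 26.7, 40.1, 67.7 and 299.7 CPM in OKMS and 0, 1.65, 16.5 and 7.68 CPM in OKS (3.96 ± 0.52, adjusted p = 0.00647). It overlapped no annotated gene, and Kcng1 was nearest, 29739 bases away. Its 1 transcript model, 2 exons and 322 bases, was at 175, 254, 456 and 1649 TPM in OKMS and 0, 0, 0 and 44.9 TPM in OKS, and is thus listed at 0 in OKS of days 14 and 20 where the gene table holds reads. A second, at chr7:27483686-27486794, minus strand, was at 38.0, 53.8, 119 and 326 CPM in OKMS and 2.23, 3.31, 38.1 and 38.4 CPM in OKS (2.98 ± 0.39, adjusted p = 0.00625) and lay across the opposite strand of Sertad1. Its 1 transcript model, 2 exons and 419 bases, was at 163, 252, 567 and 0 TPM in OKMS and 13.1, 0, 0 and 0 TPM in OKS. For this gene too the tables disagree, in both day 18 libraries and in OKS of days 14 and 20, where the model is listed at 0. Both unannotated genes were also read in stem cells, at R10 means of 94.8 and 109.9 CPM.

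Of the 32 genes, 90.6% were at least 2-fold higher in stem cells than in wild-type progenitors (R10), against 20% of all tested genes, and none was lower. In wild-type progenitors after serum, LIF and doxycycline 0 of the 32 were at least 2-fold higher, against 17.6% of all tested genes, and 2 (6.25%) were at least 2-fold lower, against 14.6%. Some of the 32 had almost no reads in wild-type progenitors. Fkbp6 was at 0.302 CPM in progenitor medium and 0.165 CPM after serum, LIF and doxycycline, and Fmr1nb at 0 and 0.165 CPM (R10 means). Such genes can hardly fall from the progenitor level, so the shares called lower say little about them.

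The median difference in core pluripotency genes was wide in the pairs of days 10 and 14 and near 0 or below in the later pairs. Of 29 tested, 1 was called, Fbxo15, a target of Oct4 and Sox2, at 124, 86.5, 119 and 46.0 CPM in OKMS and 13.4, 13.2, 50.3 and 25.6 CPM in OKS (1.95 ± 0.40, adjusted p = 0.0447). The list's median was 1.57, with 28 of 29 members above 0, against 6835 of all 14896 tested genes. By pair the median was 3.81 at day 10, 2.73 at day 14, 0.21 at day 20 and -0.36 at day 18. Dppa5a, an RNA-binding protein of naive cells, was at 4360.4, 7543, 6369 and 14001 CPM in OKMS and 37.9, 421, 5019 and 3843 CPM in OKS. Zfp42, also called Rex1, was at 201, 353, 725 and 295 CPM in OKMS and 0, 35.6, 595 and 379 CPM in OKS. Utf1 was at 619, 621, 904 and 292 CPM in OKMS and 4.46, 52.1, 831 and 471 CPM in OKS. In all 3 OKS was near 0 or far below OKMS at days 10 and 14. At days 18 and 20 the OKS level of Zfp42 and Utf1 lay within a factor of 2 of OKMS on both days. Nanog, named after its values were seen, was at 131, 303, 249.95 and 269 CPM in OKMS and 4.46, 11.6, 283 and 206 CPM in OKS. None of these 4 was called: the adjusted p were 0.0761, 0.199, 0.217 and 0.142.

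**Figure D2:**
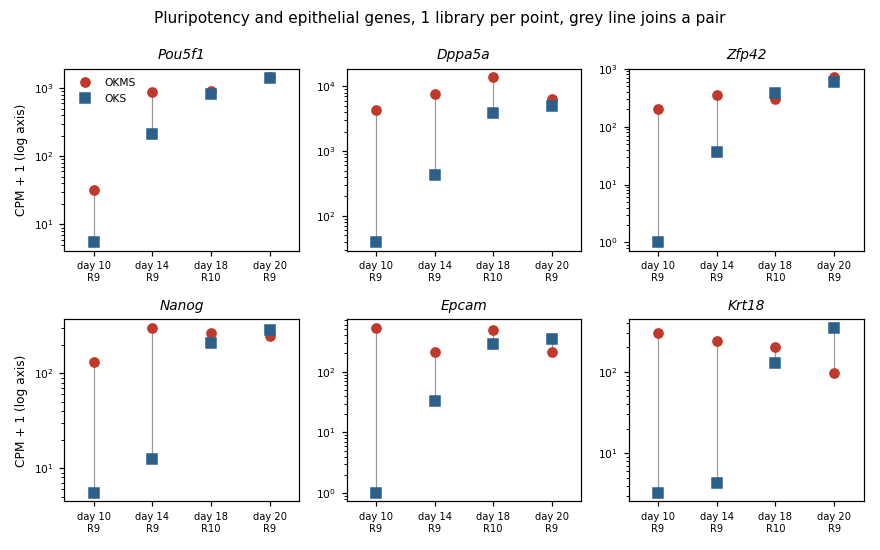
CPM + 1 on a log axis in OKMS (circles) and OKS (squares) for 6 pluripotency and epithelial genes, with the 2 libraries of a pair joined by a grey line. The gap is wide at days 10 and 14 and small at days 18 and 20 for Pou5f1, Zfp42 and Nanog, and Krt18 lies higher in OKS at day 20 (349 against 97.3 CPM).

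The median difference in epithelial genes was also widest in the pairs of days 10 and 14. All 20 tested had a difference above 0, against 6835 of all 14896 tested genes. None was called, with a median of 1.70 and pair medians of 5.36, 2.87, -1.25 and 0.18. Epcam, an epithelial adhesion molecule, was at 532, 212, 211 and 484 CPM in OKMS and 0, 32.3, 345 and 282 CPM in OKS (2.95 ± 1.18, adjusted p = 0.224). Krt18, a simple-epithelium keratin, was at 297, 237, 97.3 and 202 CPM in OKMS and 2.23, 3.31, 349 and 128 CPM in OKS (2.78 ± 1.12, adjusted p = 0.224). Cdh1, E-cadherin, was at 54.9, 77.0, 69.0 and 148 CPM in OKMS and 0, 3.31, 111 and 131 CPM in OKS (2.37 ± 0.89, adjusted p = 0.201). OKS lacked all 3 or nearly so at day 10, and at day 20 it was above OKMS in each.

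A test of the day dependence was added after these values were seen, and compared the OKMS minus OKS difference of days 10 and 14 with that of days 18 and 20 in a fit over all 13 pairs. Its split of the days was chosen from the same values, so its p-values are no independent support for a dependence on day. Days 18 and 20 also join an R10 pair with an R9 pair. Of 19195 genes tested 349 had a larger difference at days 10 and 14 (1.82%) and 29 a smaller one (0.151%), which became 100 and 30 with median centring and 135 and 41 with DESeq2. The larger ones held 9 of 20 epithelial genes, 5 of 29 pluripotency genes, 5 of 12 formative and primed genes and 7 of 20 glycolysis genes. Among the epithelial genes Krt19 changed by 7.37 ± 1.44 (adjusted p = 0.022), Krt18 by 6.75 ± 1.17 (adjusted p = 0.0161) and Cdh1 by 5.24 ± 1.12 (adjusted p = 0.0309). Tdgf1, a co-receptor of Nodal, changed by 6.16 ± 1.52 (adjusted p = 0.0484) and Zfp42 by 5.51 ± 1.36 (adjusted p = 0.0486). Pou5f1, Nanog, Dppa5a, Utf1 and Epcam did not pass, with adjusted p of 0.0564, 0.0968, 0.241, 0.133 and 0.0617. The count fell to 1 without the day 10 pair and to 1 with R9 pairs alone. Fmod and Acta2 did not pass this test: for Fmod the value was 0.44 ± 1.10 (adjusted p = 0.892) and for Acta2 0.50 ± 0.77 (adjusted p = 0.792).

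The lists tied to Myc's functions held no late call, where 0.215% of all tested genes were called higher and 1.42% lower, so a count of 0 in lists of this size is near the background. Of 30 ribosome biogenesis genes bound by Myc none was called at days 10 to 20, with a median of 0.41 and pair medians of 1.04, 0.94, 0.37 and -0.75. Npm1, nucleophosmin, was at 3806, 4417, 7054 and 4318 CPM in OKMS and 924, 2072, 5191 and 4671 CPM in OKS and Ncl, nucleolin, at 1408, 2037, 4249 and 1766 CPM in OKMS and 656, 1196, 3017 and 3354 CPM in OKS. Npm1 was higher in OKMS in the 3 R9 pairs and lower at day 18 in R10. Of 19 metabolic and growth targets of Myc, 24 mitosis and replication genes and 20 glycolysis genes none was called either, with medians of 0.43, 0.85 and 0.71. Of the ribosome biogenesis genes 1 had an unadjusted p under 0.05 by limma, as did 3 of the growth targets, 13 of the mitosis genes and 3 of the glycolysis genes, against 2793 of all 14896 tested. Top2a, topoisomerase II alpha, was at 364, 444, 473 and 944 CPM in OKMS and 58.0, 237, 545 and 601 CPM in OKS and Ube2c, which feeds the anaphase-promoting complex, at 529, 654, 707 and 1555 CPM in OKMS and 78.1, 383, 783 and 803 CPM in OKS. Both were far lower in OKS of day 10 than in any other library. Ldha, lactate dehydrogenase, was at 2809, 3430.2, 1779 and 2252 CPM in OKMS and 613, 1056, 2509 and 2281 CPM in OKS and Pkm, pyruvate kinase, at 2563, 2656, 1454 and 2684 CPM in OKMS and 576, 1108, 2269 and 2368 CPM in OKS, and at day 20 both lay lower in OKMS than in OKS.

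**Figure D3:**
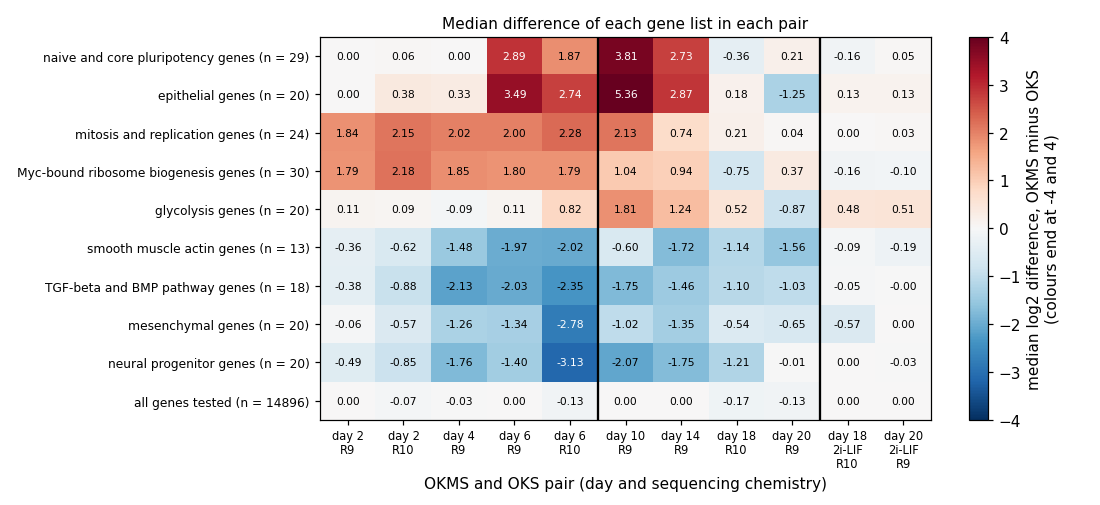
Colour and printed number give the median log2 difference, OKMS minus OKS, of each list (rows, with the number of genes tested over all pairs) in each pair (columns), and the black lines set off the late pairs. The pluripotency and epithelial lists are high at days 10 and 14 (3.81 and 5.36 at day 10) and near 0 or below at days 18 and 20, while the smooth muscle and TGF-beta lists are below 0 in all 4 late pairs.

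In a minority of the growth genes listed, the OKMS minus OKS difference was called larger early. In the fit over all pairs, 56 genes (0.292%) had a late difference above the early one and 160 (0.834%) a late difference below it. Of the 30 ribosome biogenesis genes 12 were among the 160, as were 7 of 19 metabolic and growth targets and 6 of 24 mitosis and replication genes. Srm, spermidine synthase, changed by -2.34 ± 0.39 (adjusted p = 0.0188), Rrm2, a subunit of ribonucleotide reductase, by -1.93 ± 0.36 (adjusted p = 0.019), Nop56, a nucleolar protein, by -1.79 ± 0.37 (adjusted p = 0.0285) and Npm1 by -1.53 ± 0.36 (adjusted p = 0.0486). At day 6 in R9 Srm was at 349 CPM in OKMS and 87.0 CPM in OKS. At day 20 it was at 676 and 520.3 CPM, an OKS level far above the 98.2 to 164 CPM of the other late OKS libraries. These counts were lost with R9 pairs alone and without the pair block, where limma called 0 genes (1411 and 2345 at an unadjusted p under 0.05). No tested member of the pluripotency, epithelial, smooth muscle, collagen or TGF-beta lists used here was called late against early. Inhbb, described next, is in none of them.

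For some genes the difference had opposite signs in the 2 stages. Shisa3 lay higher in OKMS in all 5 early pairs, for example at 134 against 39.1 CPM at day 4. It was then lower in all 4 late pairs, at 22.5, 36.9, 0 and 0 CPM in OKMS and 132, 119.9, 14.4 and 24.3 CPM in OKS. The late minus early change was -4.23 ± 0.71 (adjusted p = 0.0188). Pllp, plasmolipin, likewise went from 190.5 against 68.3 CPM at day 2 in R10 to 67.5, 80.2, 24.6 and 7.42 CPM in OKMS and 243, 353, 28.7 and 90.9 CPM in OKS, a change of -2.96 ± 0.49 (adjusted p = 0.0188). In the other direction, Inhbb, the activin B subunit, was below OKS in OKMS in all 5 early pairs and above it in all 4 late ones (9.85, 16.9, 24.6 and 4.45 CPM in OKMS and 0, 8.27, 5.75 and 0 CPM in OKS), a change of 3.62 ± 0.67 (adjusted p = 0.019). The late difference by itself was not called for Pllp or for Inhbb (adjusted p = 0.0821 by limma for Inhbb). Inhbb had 7, 16, 20 and 3 reads in the late OKMS libraries. Fmr1nb and Stra8 were at 0 in both systems in every early pair, so their changes of 3.57 ± 0.71 (adjusted p = 0.0247) and 3.48 ± 0.60 (adjusted p = 0.0188) restate the late difference.

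The late gene sets were followed into libraries that had no part in choosing them. At day 6, 181 of the 212 lower genes (85.4%) were at least 2-fold lower in OKMS in R9 and 190 (89.6%) in R10, against 21% and 25.7% of all tested genes. At day 2 the numbers were 38 (17.9%) and 72 (34.0%), against 9.85% and 10.8%. Before induction 19 (8.96%) and 12 (5.66%) were, against 8.55% and 2.6% of all. In 2i-LIF, which replaces serum by inhibitors of MEK and GSK3, 45 (21.2%) of the 212 were at least 2-fold lower in OKMS in R9 and 72 (34.0%) in R10, against 7.26% and 12.9% of all tested genes. Whether doxycycline was still given in 2i-LIF is not stated here, and the parts of medium and inducer were not tested. Of the 32 higher genes, 13 (40.6%) and 12 (37.5%) were at least 2-fold higher at day 6, against 20.1% and 16.1% of all. At day 2, 8 (25%) and 5 (15.6%) were, against 15.1% and 11.3%. Before induction 2 (6.25%) and 0 of the 32 were, against 9.19% and 2.13% of all. In 2i-LIF 0 and 2 (6.25%) of them were, against 9.92% and 11.9% of all. Before induction and at days 2 and 6 the median difference of the 32 was 0. Some of the 32, such as Fkbp6 and Fmr1nb, had no reads in either system on those days. A gene without reads cannot differ, so such genes hold down the shares of the higher set before induction and at days 2 and 6.

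**Figure D4:**
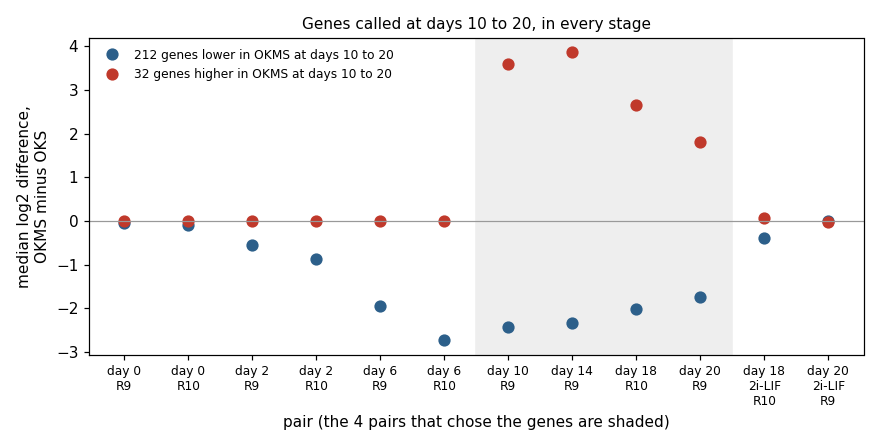
The points give the median log2 difference, OKMS minus OKS, of the 212 lower (blue) and 32 higher (red) genes in each pair, and the shading marks the 4 pairs that chose them. The lower set stands at -1.95 and -2.73 in the day 6 pairs, and in 2i-LIF the medians are 0 and -0.38 for the lower set and -0.02 and 0.07 for the higher set. The higher set stands at 0 before induction and at days 2 and 6, where some of its genes had no reads.

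Against 2i-LIF, 5 genes (0.026%) had a late difference above that of the 2i-LIF pairs and 26 (0.135%) one below it. This split depends on the processing: edgeR called 94 above and 94 below, quantile normalization 20 and 27, and no filter on low values 64 and 67. DESeq2 left 2 calls, the fit without the pair block 1 and the R9 pairs alone 0. Npnt, nephronectin, an integrin ligand, changed by -5.30 ± 0.67 (adjusted p = 0.00421), Ltbp1, a latent TGF-beta binding protein, by -3.72 ± 0.56 (adjusted p = 0.0166), Gsn, gelsolin, an actin-severing protein, by -3.30 ± 0.42 (adjusted p = 0.00421) and Fmod by -4.87 ± 0.95 (adjusted p = 0.0494). In the late pairs Npnt was at 21.1, 57.0, 1.23 and 16.3 CPM in OKMS and 174, 228, 21.6 and 70.4 CPM in OKS. In 2i-LIF it was at 4.30 CPM in OKMS and 0 CPM in OKS at day 20 and at 7.05 and 0 CPM at day 18. In the same order Fmod was at 0 and 0, then 10.6 and 6.26 CPM, and Gsn at 5.37 and 1.16, then 8.82 and 1.56 CPM. Ltbp1 was at 7.52 and 4.66, then 3.53 and 1.56 CPM. All were thus low in both systems in 2i-LIF. The change of Fmod largely restates its late difference, and those of the others rest partly on few reads. Fkbp6, Stra8 and Rhox5 were high in both systems in 2i-LIF, with Fkbp6 at 172 against 196 CPM at day 20. None of these 3 passed the test of late against 2i-LIF, which rests on 2 pairs in 2i-LIF. Against uninduced progenitors limma called 0 genes (0%; 1802 at an unadjusted p under 0.05), edgeR 336 and DESeq2 11. This contrast rests on 2 uninduced pairs, and 0 calls do not show that the late differences were there before induction. Igfbp3, among the genes with the smallest adjusted p by limma (0.102), changed by -4.13 ± 0.73.

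A position between progenitors and stem cells summed up the genes that separate these cell types. For each library, the log2 deviations of genes from the average progenitor (wild-type and uninduced OKMS and OKS libraries together) were regressed on the gap between stem cells and progenitors within the same chemistry. The genes used (7067 for R9, 5671 for R10) separated stem cells from progenitors in the opposite chemistry. By construction progenitors average 0 and stem cells 1. OKMS stood at 0.563, 0.640, 0.795 and 0.764, and OKS at 0.155, 0.292, 0.689 and 0.613. OKMS was ahead in 4 of 4 pairs, by 0.408, 0.349, 0.106 and 0.151, a mean of 0.253 ± 0.147 (SD, n = 4 pairs). The two-sided exact sign-flip permutation test gave p = 0.13, the smallest that 4 pairs allow. OKS of day 20 lay above OKMS of day 14. The OKMS library of day 10 in R10, which had no OKS partner and entered no test above, stood at 0.560, near the 0.563 of its R9 counterpart.

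**Figure D5:**
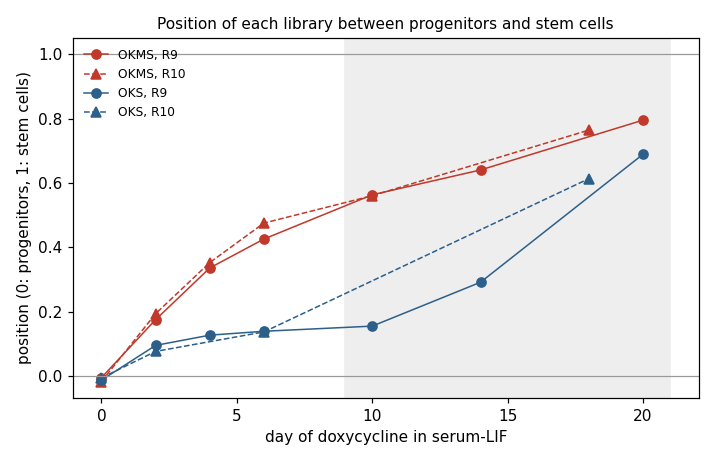
Position between progenitors (0) and stem cells (1) against day of induction for OKMS (red) and OKS (blue) in R9 (circles, solid lines) and R10 (triangles, dashed lines), 1 library per point, with days 10 to 20 shaded. OKMS lies above OKS on each shared day from day 2 on, and the gap is 0.408 at day 10 and 0.106 at day 20.

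Of the remaining lists, 1 of 16 LIF and STAT3 pathway genes was lower in OKMS (Fos; median -0.55), and none of 13 interferon and MHC class I genes (median -0.66) or 2 two-cell-like genes was called. Markers of stem cells summed to 5837 to 15216 CPM in OKMS and 105 to 7799 CPM in OKS, with 1 of 10 called (Fbxo15). Dppa5a is large in this sum (4360 to 14001 CPM in OKMS). The median difference of these markers by pair was 4.62, 3.26, 0.09 and 0.32. Neuron markers summed to 439 to 1033 CPM in OKMS and 228 to 1201 CPM in OKS, and these ranges overlapped. Astrocyte markers summed to 555 to 2226 CPM in OKMS and 735 to 2851 CPM in OKS, a sum in which Apoe is large (446 to 2073 CPM in OKMS). Their median difference was -1.82, below 0 in all 4 pairs, with 5 of 7 tested members below 0 and 1 called (Clu). Apoe was among those above 0 (0.75 ± 0.41, adjusted p = 0.354). Its late difference was above the early one by 2.69 ± 0.57 (adjusted p = 0.0347 by limma). Of 9 blood and macrophage markers 4 were among the deposited genes, with Tyrobp at 0 in all 8 libraries. Their sum was 9.5 to 68.9 CPM in OKMS and 3.84 to 9.34 CPM in OKS, and both ends of the OKS range equal Cd68 alone. Cd68 by itself overlapped, at 8.44 CPM in OKMS of day 14 and 9.34 CPM in OKS of day 20. The 1 tested, Cd68, a lysosomal protein of macrophages, was at 68.9, 8.44, 29.6 and 29.7 CPM in OKMS and 4.46, 4.96, 9.34 and 3.84 CPM in OKS, above OKS in each pair and not called (2.14 ± 0.53, adjusted p = 0.0761). Endothelial markers summed to 13.5 to 115 CPM over the 8 libraries, trophoblast markers to 53.4 to 68.9 CPM in OKMS and 13.4 to 43.1 CPM in OKS, and primitive endoderm markers to 154 to 211 CPM in OKMS and 90.9 to 173 CPM in OKS. None of the tested neuron, endothelial, trophoblast, primitive endoderm or blood markers was called. Keratinocyte markers summed to 75.7 to 295 CPM in OKMS and 2.23 to 612 CPM in OKS. Their part in the differences above was not tested.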

How the data were processed

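Poly(A) or total RNA of mouse cells was read as full-length cDNA by Nanopore sequencing, in 22 R9 and 23 R10 libraries. Per the submitters' processing notes, reads were handled with minimap2 2.24-r1122 on mm10. Per the file headers, the authors deposited 1 table of gene CPM (read counts scaled to the library total, 23575 genes) and 1 of transcript TPM (length-corrected), and the transcript positions and classes. Of the gene table's columns, 13 match no sample here and were not used. Positions overlapped those of the GENCODE annotation for 17743 of 17760 genes placed in both (99.9%). CPM values were whole multiples of 1 read (100% of values, within 0.02 reads), so reads were recovered for count tests.

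The main test was limma 3.58.1 (R 4.3.3) on log2(CPM + 1) over the 8 late libraries, two-sided, with a trend and the pair as a block, for genes with CPM of at least 1 in at least 4 libraries. Calls needed a Benjamini-Hochberg adjusted p under 0.05 and a difference of at least 1. Stage contrasts used 26 libraries (13 pairs) in 1 fit. edgeR 4.0.16 and DESeq2 1.42.0 were alternatives, as were another pseudocount (0.25), filters (none, or 5 CPM), scalings, no pair block, R9 alone, the extra R10 library of day 10, and leaving out each pair. The fits were tested on simulated data. Pairs come from the labels' day and chemistry, and deviations from the group means correlated within pairs (r 0.417, 0.232, 0.356 and 0.370 for days 10, 14, 20 and 18).

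Named genes were the introduced factors, per direction the 12 called genes of greatest difference (mean CPM of at least 5, 1 sign in 4 pairs), up to 4 called and 3 abundant uncalled members of each list, called lncRNAs and unannotated genes, and up to 4 genes per direction called late against early. Other genes named were singled out after their values were seen. The members and lists were chosen with earlier results of these data known. Depth, 447990 to 1390424 reads a late library, limits low genes most.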

Additional observations from a re-analysis of the deposited data

Results flagged for a closer look

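In 180 groups of 4 late libraries (most genes named in the text, OKMS or OKS), 8 held 1 library far from the other 3 by Dixon's test, and chance flags about 1 in 20 groups. In OKMS, Rcan2 read 2.81 CPM and the unannotated gene beside Socs3 7.03 CPM at day 10, both 0 in the other 3. At day 18 in R10, Fabp3 stood at 758 CPM (others 16.0 to 35.2) and the unannotated gene on chromosome 2 at 299.7 CPM (others 26.7 to 67.7). Pkm was at 1454 CPM at day 20 (others 2563 to 2684). In OKS the day 20 library stood apart for Gm40977 (3.59 CPM, others 0), Krt19 (179.6 CPM, others 0 to 10.2) and Srm (520.3 CPM, others 98.2 to 164).

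Some genes named in the text passed limma's interaction tests, in which the OKMS minus OKS difference itself differs between stages or days. Several were named because they passed, so how many did says nothing beyond the counts over all 19195 genes (216 late against early, 31 against 2i-LIF, 378 between the late days). Against early days the late difference on the log2 scale was higher for Fabp3 (4.10), Inhbb (3.62), Fmr1nb (3.57), Stra8 (3.48), Fkbp6 (3.38), Rec114 (3.34), Gm40977 (3.16), Gm32885 (3.01) and Apoe (2.69). It was lower for Shisa3 (-4.23), Rpph1 (-4.02), Pkp1 (-3.53), Pllp (-2.96), Vax2os (-2.63), Srm (-2.34), Rrm2 (-1.93), Nop56 (-1.79), Gm43126 (-1.61), Ccnd2 (-1.61), Nnat (-1.56) and Npm1 (-1.53). Fmr1nb, Stra8 and Fkbp6 were at 0 in every early pair, so their values restate the late difference. The same nearly holds for Gm40977 and Gm32885, each read in a single early library (0.373 and 1.36 CPM). Fabp3 did not exceed 3.36 CPM in the early pairs. Rpph1, the RNA of ribonuclease P, did not pass the filter of the late comparison. Pkp1 encodes a plakophilin of epithelial junctions and is in none of the lists used.

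Against 2i-LIF the late difference was lower for Npnt (-5.30), Fmod (-4.87), Ltbp1 (-3.72), Gsn (-3.30) and Gm43126 (-2.59). All were low in both systems in 2i-LIF. In the contrast added after the values were seen, the difference was higher on days 10 and 14 than on days 18 and 20 for Krt19 (7.37), Krt18 (6.75), Tdgf1 (6.16), Zfp42 (5.51), Cdh1 (5.24), Col18a1 (5.21), Platr14 (3.88), Ldha (2.20) and Pkm (1.94).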

How the results depend on the processing

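Calls in the late comparison (244) became 100 with a pseudocount of 0.25, 432 with edgeR (239 of the 244 among them), 398 with DESeq2 (232 among them), 106 with R9 pairs only, and 0 with no replicate block or with the R10 day 10 library and no block (1555 and 1273 genes at an unadjusted p under 0.05). Leaving out 1 pair gave 4 to 609. Late against early (216) gave 138 with the pseudocount, 92 with no filter, 329 with a minimum of 5 CPM, 336 with median centring, 895 with edgeR, 0 with no replicate block, 0 with R9 only and 69 to 751 without 1 pair. Late against 2i-LIF (31) gave 52 with the pseudocount, 131 with no filter, 47 with quantile normalization, 188 with edgeR, 2 with DESeq2, 1 with no replicate block, 0 with R9 only (1256 at an unadjusted p under 0.05) and 6 to 119 without 1 pair. Late against uninduced (0) gave 2 with median centring, 336 with edgeR, 11 with DESeq2 and 0 to 4 without 1 pair. The contrast of days 10 and 14 with days 18 and 20 (378), chosen after seeing the data, gave 117 with the pseudocount, 132 with no filter, 225 with quantile normalization, 130 with median centring, 685 with edgeR, 176 with DESeq2, 140 with no replicate block, 1 with R9 only and 1 to 508 without 1 pair. The cause was not tested. Of the calls, 13.1% were higher in the late comparison, against 37.4% with median centring and 30.2% with DESeq2.

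The mean gap in position between progenitors and stem cells stayed between 0.202 and 0.302 under every alternative run. Of 59 named genes called late, 28 missed the threshold with the pseudocount of 0.25, 31 with R9 only, 59 with no replicate block, 34 without the day 10 pair, 56 without day 14, 2 without day 20 and 31 without day 18. With edgeR or DESeq2 all 59 passed. Klf4, which was not called, turned to 0.10 with median centring and to 0.013 with the extra library.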
